A study of Mus musculus with 8 samples.

Results

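Cytosolic ribosomal proteins were followed through RNA sequencing of mouse peritoneal macrophages kept with dying fibroblasts. The genes were all protein-coding entries of the mouse annotation GENCODE M21 with a symbol starting with Rpl or Rps, without the kinases and binding proteins whose symbols start with Rps6k or Rps19bp. The rule used no measured value and gave 91 of the 47643 genes in the tables. By role, 43 encode proteins of the large (60S) subunit, 31 proteins of the small (40S) subunit and 3 the stalk of the large subunit. A further 7 are paralogs, that is genes related to another member and named after it, and 7 carry the names of retrocopies although M21 lists them as coding.

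The question was how the transcripts of macrophages differ once they have been next to apoptotic cells. The group MΦ+FV-Casp8+Dimerizer held 4 libraries of C57 BL/6 macrophages that shared wells with NIH 3T3 fibroblasts, a mouse line carrying FV-hCasp8, a human caspase-8 that the B/B Homodimerizer brings together so that the cells die by apoptosis. The group MΦ+Dimerizer held 4 libraries of C57 BL/6 macrophages that received the dimerizer without fibroblasts. Wells of both groups got 10 nM dimerizer, RNA was taken 48 h later, and in the co-culture a membrane with 5 µm pores lay between both cell types.

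The fibroblasts came from single-cell clones, so a property of a clone cannot be told apart from one of the line. No library of macrophages beside living fibroblasts was analysed here, so the presence of fibroblasts and their death cannot be told apart. The sources used here give no age for the animals. The study describes its replicates as macrophages of different animals. In bulk RNA such as this, fewer cells of a type and less RNA per cell cannot be told apart. The defining macrophage markers were present, Adgre1 with 9276.5 ± 581.2 normalized counts in co-culture libraries and 7713.3 ± 412.1 in dimerizer libraries, and Csf1r with 8532.0 ± 495.1 in co-culture libraries and 9754.0 ± 1046.3 in dimerizer libraries. Of 10 such markers 3 were higher (Adgre1, Itgam, Timd4), 2 lower (Mertk, Gata6) and 5 not called. Their sum lay between 228650.5 and 256508.6 in co-culture libraries and between 203519.2 and 210840.5 in dimerizer libraries, and most of it was Lyz2, with 198255.8 ± 9686.4 in co-culture libraries and 163684.1 ± 4457.7 in dimerizer libraries.

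Most ribosomal proteins are present in a single copy per ribosome, and the mRNAs for these proteins are among the most abundant of a cell. Their transcripts typically begin with a C followed by a run of C and T (a 5′ terminal oligopyrimidine tract, TOP), through which the kinase mTORC1 and the RNA-binding protein Larp1 control how strongly they are translated. Because this control acts on translation, the level of such an mRNA does not by itself give the rate at which the protein is made. In macrophages, growth, activation and proliferation all place demands on ribosome supply.

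The stretches around annotated transcript starts are given for members to which the results return, because a TOP tract would lie directly at the start. Each line shows 15 bases before and 15 bases after the RefSeq start on GRCm38.p6, 5′ to 3′ on the gene's strand, with the longest run of C and T in capitals. The windows are Rpl39l at chr16:10170213-10170242 on the plus strand, Rpl39 at chrX:37085208-37085237 on the minus strand, Rpl22l1 at chr3:28805493-28805522 on the plus strand, Rps27 at chr3:90213634-90213663 on the minus strand and Rplp2 at chr7:141447636-141447665 on the plus strand.
Rpl39l: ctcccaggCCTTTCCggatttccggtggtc
Rpl39: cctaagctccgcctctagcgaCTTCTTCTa
Rpl22l1: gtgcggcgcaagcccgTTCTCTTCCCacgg
Rps27: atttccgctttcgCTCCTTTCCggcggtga
Rplp2: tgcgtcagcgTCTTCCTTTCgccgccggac
The longest run had 7 bases in Rpl39l, 8 in Rpl39, 9 in Rps27 and 10 in both Rpl22l1 and Rplp2. It spans the annotated start in Rps27 and Rplp2 only. In Rpl39l it ends before the start, and in Rpl39 and Rpl22l1 it begins after it. A run in capitals is therefore not by itself a TOP tract.

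The letters CTTTCC, a common core of these tracts, were searched on both strands within 50 bases on either side of the start. They occurred on the gene's strand in 21 of the 65 members with an entry in the promoter table (32.3%), against 1468 of all 27025 genes in it (5.4%). On the opposite strand they occurred in 3.1% of the members and 5.1% of all genes. Rpl39l and Rps27 hold the letters on their own strand, whereas Rpl39, Rpl22l1 and Rplp2 do not. A match describes the letters only.

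The coding sequences of the pairs Rpl39l/Rpl39 and Rps27l/Rps27 are shown because reads can be told apart only where paralogs differ, and capitals mark the bases that differ within a pair. They were joined from the coding exons of M21 on GRCm38, within the gene spans chr16:10170226-10174911 (plus strand, Rpl39l), chrX:37082520-37085402 (minus strand, Rpl39), chr9:66946086-66949516 (plus strand, Rps27l) and chr3:90212522-90213651 (minus strand, Rps27).
Rpl39l: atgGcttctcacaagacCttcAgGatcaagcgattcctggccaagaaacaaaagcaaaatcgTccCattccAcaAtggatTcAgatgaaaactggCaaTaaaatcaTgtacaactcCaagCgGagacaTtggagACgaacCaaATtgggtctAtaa
Rpl39: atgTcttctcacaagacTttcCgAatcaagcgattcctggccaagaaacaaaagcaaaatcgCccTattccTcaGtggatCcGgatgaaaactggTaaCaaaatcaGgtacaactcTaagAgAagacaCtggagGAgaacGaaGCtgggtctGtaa
Rps27l: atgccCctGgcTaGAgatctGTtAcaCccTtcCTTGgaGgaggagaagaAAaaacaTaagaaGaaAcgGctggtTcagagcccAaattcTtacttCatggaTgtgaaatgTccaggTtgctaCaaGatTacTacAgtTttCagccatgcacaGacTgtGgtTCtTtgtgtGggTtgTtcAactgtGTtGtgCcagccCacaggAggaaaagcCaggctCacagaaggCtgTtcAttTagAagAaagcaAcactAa
Rps27: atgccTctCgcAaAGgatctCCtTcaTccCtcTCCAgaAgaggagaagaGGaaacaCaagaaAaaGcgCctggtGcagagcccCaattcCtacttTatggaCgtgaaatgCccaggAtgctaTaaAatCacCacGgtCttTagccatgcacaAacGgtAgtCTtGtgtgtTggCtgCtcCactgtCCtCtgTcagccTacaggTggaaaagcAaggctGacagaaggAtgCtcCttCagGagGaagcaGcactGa
Rpl39l and Rpl39 differ at 23 of 156 bases (85.3% identity), 16 of them at the third base of a codon, and their longest identical run is 38 bases. Rps27l and Rps27 differ at 61 of 255 bases (76.1% identity), 53 of them at the third base of a codon, and their longest identical run is 11 bases.

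Relative to the other transcripts of their libraries, ribosomal protein transcripts as a whole stood at like levels in both groups. Normalized counts cannot show a change that all transcripts of a cell share. Their summed normalized counts were 156088, 169572, 164244 and 171494 in co-culture libraries, against 159428, 168468, 167827 and 168301 in dimerizer libraries. The means were 165350 ± 6890 in co-culture libraries and 166006 ± 4390 in dimerizer libraries (SD, n = 4 each), so the difference was smaller than the spread within either group. Co-culture library 1 and dimerizer library 1 had the lowest sums of their groups.

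The members took 2.09% ± 0.114 of all reads in co-culture libraries and 2.03% ± 0.0596 in dimerizer libraries. Genes with Rpl symbols summed to 83547 ± 3411 in co-culture libraries and 84612 ± 2609 in dimerizer libraries. Genes with Rps symbols summed to 81803 ± 3508 in co-culture libraries and 81394 ± 2010 in dimerizer libraries. Neither subunit stood out from the other.

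Of the 91 members, 84 had a mean normalized count of at least 10 and were tested with limma among 12029 genes. In the co-culture 3 rose, Rpl39l and Rpl22l1 among them, Rps27 fell, and 80 were not called at an adjusted p under 0.05. The called share was 4.76% of the members, whereas 28.7% of all tested genes were called (15.0% higher, 13.7% lower). At an unadjusted p under 0.05 there were 6 members. Co-culture and dimerizer values were fully separate in 5 members (5.95%), Rpl39l, Rpl4, Rpl31 and Rplp2 among them, against 29.4% of all tested genes.

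The members were measured with narrow intervals. The median standard error of the log2 fold change was 0.076 over the members, against 0.127 over all tested genes. In 76 of 84 members (90.5%) the 95% interval lay within ±0.5 on the log2 scale, against 45.7% of all tested genes. That share depends on the size of the change as well as on the width of the interval. Members were also abundant, so they were compared with genes of like level: among genes with a mean of at least 500, 2 of 67 members were called (2.99%), against 39.4% of 2921 genes. The log2 fold change was under 0.25 in size in 78 of 84 members.

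**Figure D1:**
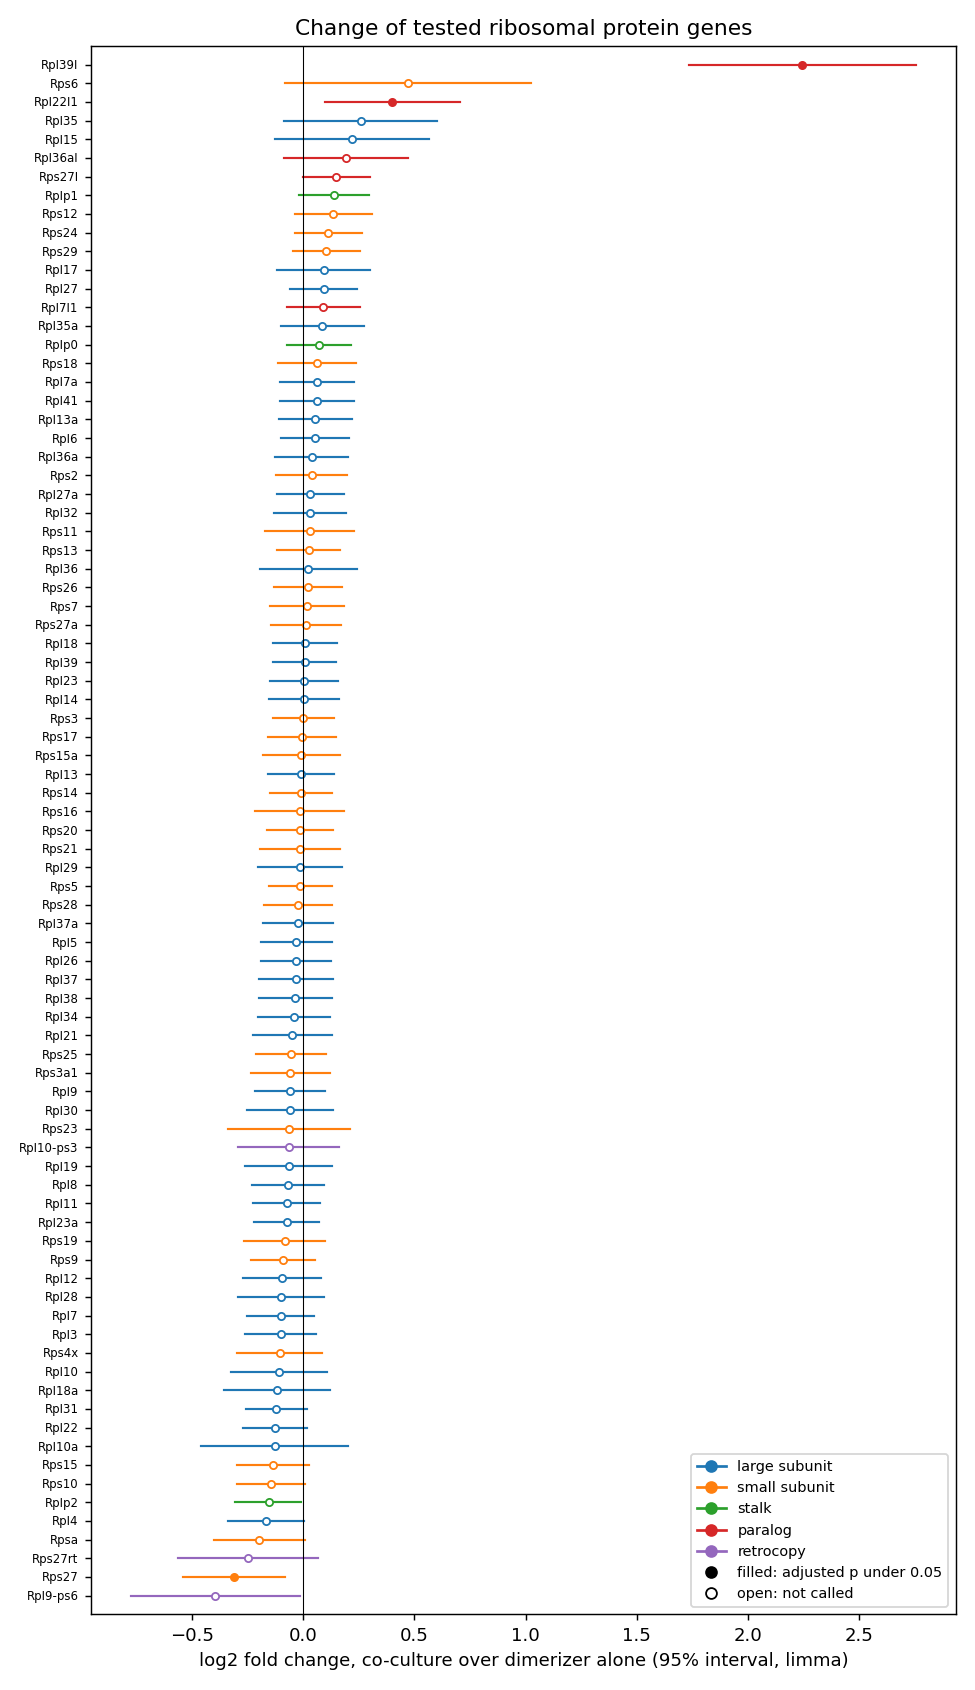
Log2 fold change (x axis, MΦ+FV-Casp8+Dimerizer over MΦ+Dimerizer) with its 95% interval from limma for 83 of the 84 tested members (y axis), coloured by role. Filled points are called genes, and Rpl39l at 2.25 lies far to the right of the others.

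**Figure D2:**
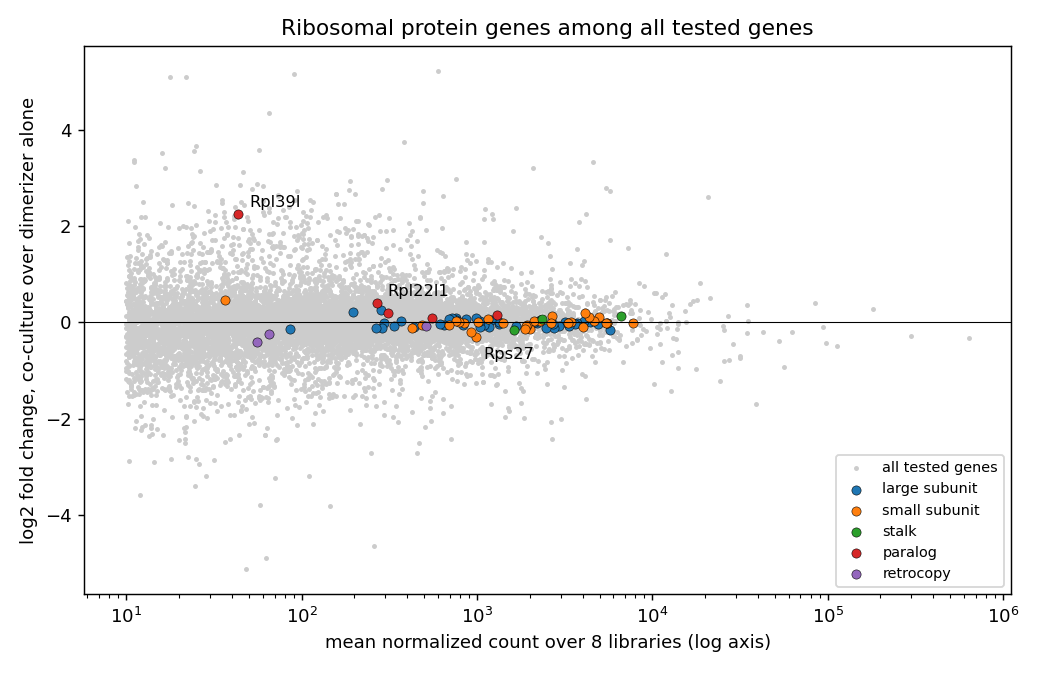
Mean normalized count over 8 libraries (x axis, log scale) against the log2 fold change of MΦ+FV-Casp8+Dimerizer over MΦ+Dimerizer (y axis) for all 12029 tested genes in grey and the members in colour. The members lie close to 0 at levels where many other genes do not.

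Signs were mixed among the members. There were 37 positive and 47 negative log2 fold changes with a median of -0.015, against 0.007 over all tested genes, and the members' median lay between -0.05 and 0.01 under the alternatives tried. None of the 42 tested large subunit genes was called, with a median of -0.03 and a range from -0.17 to 0.26. In the 31 small subunit genes 1 was higher and 1 lower, with a median of -0.01 and a range from -0.31 to 0.47. Of the 5 tested paralogs 2 rose, Rpl39l and Rpl22l1, where 15.0% of all tested genes were higher and 13.7% lower. The call of Rpl22l1 was lost under 8 of 18 alternatives. All 5 had positive log2 fold changes, with a median of 0.19, and 3 of them were not called. The 3 tested retrocopies had negative ones between -0.40 and -0.07, of which none was called.

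Within each group the members tended to shift together from library to library. In co-culture library 1, 72 of the 84 members lay below their group mean, with a median deviation of -0.09 on the log2 scale. In co-culture library 4 only 13 lay below, with a median deviation of 0.07. In dimerizer library 1, 73 lay below, with a median deviation of -0.06. The other libraries had medians between -0.02 and 0.04. The median change between groups was -0.015. It rests on means of 4 libraries, which vary less than single libraries, so its size cannot be compared directly with these shifts.

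Libraries held between 5904441 and 11506556 reads (median 7983312), and mitochondrial transcripts took 5.59% to 7.52% of them. Gm42418, which overlaps a ribosomal RNA repeat, took 7.23% ± 1.05 of the reads in co-culture libraries and 8.69% ± 0.405 in dimerizer libraries. Markers of other cells differed between the groups as well. The sum of 10 fibroblast markers was 2904.3 to 4363.2 in co-culture libraries and 6937.0 to 10513.4 in dimerizer libraries, and 7 of the 9 tested fell, among them Col1a1 and Postn. The sum of 6 mesothelial markers was 58.0 to 102.9 in co-culture libraries and 151.3 to 217.1 in dimerizer libraries, and all 3 tested ones fell.

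The sum of 8 B cell markers was 3817.1 to 9314.1 in co-culture libraries and 1251.1 to 8026.9 in dimerizer libraries, with 2 of 7 higher. For 6 neutrophil markers the sum was 1020.3 to 1750.3 in co-culture libraries and 2052.9 to 5232.8 in dimerizer libraries, with 2 of 3 lower and Ly6g at 0 throughout. The 7 mast cell markers summed to 558.7 to 1529.3 in co-culture libraries and 651.4 to 3847.4 in dimerizer libraries, with 2 lower. The 6 dendritic cell markers summed to 349.9 to 965.9 in co-culture libraries and 395.4 to 622.5 in dimerizer libraries, with 1 of 4 higher and 2 lower. The 7 T and NK cell markers summed to 42.8 to 105.8 in co-culture libraries and 28.4 to 79.6 in dimerizer libraries, with neither of 2 called. The 5 red cell markers summed to 1.0 to 22.5 in co-culture libraries and 76.9 to 306.4 in dimerizer libraries, and both tested ones fell. What part these cells had in the values of the ribosomal protein genes was not tested.

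Levels differed widely among members, far more than between the groups. Means over the 8 libraries were above 1000 normalized counts in 50 members, between 100 and 1000 in 29, between 10 and 100 in 5 and below 10 in 7. The 5 most abundant members held 18.8% of the summed counts and the top 20 held 56.0%. Each read of the 3′ method stands for 1 transcript end, so these counts need no division by length.

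Rps20, a small subunit protein and the most abundant member, had 7545.7, 7801.7, 7813.6 and 7845.4 normalized counts in co-culture libraries, against 7512.5, 7755.7, 7883.3 and 8199.9 in dimerizer libraries. The ranges overlapped almost fully, and the log2 fold change was -0.015 (95% interval -0.16 to 0.13). Rps14, of the platform of the small subunit, averaged 5525.6 ± 41.2 in co-culture libraries and 5575.1 ± 180.4 in dimerizer libraries. Rps21, also of the small subunit, averaged 5523.0 ± 551.9 in co-culture libraries and 5567.4 ± 298.8 in dimerizer libraries. The level of all 3 was within the spread of the replicates.

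Rpl4, which lines the exit tunnel of the large subunit, had 5083.3, 5559.4, 5361.0 and 5433.5 normalized counts in co-culture libraries, against 5623.0, 6846.4, 6002.7 and 5692.0 in dimerizer libraries. Every co-culture value lay below every dimerizer value, with a log2 fold change of -0.17 (95% interval -0.34 to 0.00) that was not called (adjusted p = 0.129, limma). It was called with quantile normalization (adjusted p = 0.0222).

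The stalk recruits the factors that drive elongation, and none of its 3 genes was called, with log2 fold changes from -0.16 to 0.14. Rplp0, the base of the stalk and a frequent reference gene in RT-qPCR, had 2416.5 ± 71.2 normalized counts in co-culture libraries and 2303.3 ± 127.7 in dimerizer libraries. Its log2 fold change was 0.07 (95% interval -0.07 to 0.21, adjusted p = 0.47, limma). Rplp1, whose protein pairs with that of Rplp2, had 6547.6, 7381.2, 7102.5 and 6623.6 in co-culture libraries, against 6174.0, 6064.7, 6164.8 and 6720.9 in dimerizer libraries. The groups overlapped through dimerizer library 4, and the log2 fold change of 0.14 was not called (adjusted p = 0.184).

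Rplp2 had 1514.9, 1467.4, 1559.5 and 1586.6 normalized counts in co-culture libraries, against 1734.2, 1657.4, 1853.7 and 1596.9 in dimerizer libraries. The groups did not overlap, though the highest co-culture value and the lowest dimerizer value were close. The log2 fold change was -0.16 (95% interval -0.31 to -0.01, adjusted p = 0.108, limma), and it was called with quantile normalization (adjusted p = 0.0473).

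Rpl5, Rpl11, Rpl13a and Rps27a, each with a known role outside the ribosome, were not called. Rpl5 and Rpl11, which bind Mdm2 when ribosome assembly is disturbed, averaged 611.6 ± 24.2 and 1619.9 ± 74.9 in co-culture libraries, against 625.4 ± 41.1 and 1708.0 ± 106.4 in dimerizer libraries. Rpl13a, which in human monocytic cells silences inflammatory mRNAs after interferon-gamma, averaged 2337.7 ± 186.7 in co-culture libraries and 2248.8 ± 117.5 in dimerizer libraries. Rps27a, which is made as a fusion with ubiquitin, averaged 1023.5 ± 69.0 in co-culture libraries and 1013.4 ± 50.5 in dimerizer libraries. The adjusted p of these 4 genes lay between 0.463 and 0.919 (limma).

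Rpsa, which is also known as the laminin receptor, had 744.2, 985.3, 809.7 and 918.4 normalized counts in co-culture libraries, against 887.7, 1075.7, 963.9 and 1026.0 in dimerizer libraries. The ranges overlapped, and the log2 fold change was -0.20 (95% interval -0.40 to 0.01, adjusted p = 0.142, limma). Rpl31, of the large subunit, had 2361.5 ± 101.1 in co-culture libraries and 2568.3 ± 76.3 in dimerizer libraries. Its groups did not overlap, but the log2 fold change of -0.12 was not called (adjusted p = 0.182).

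Rpl39l, a paralog of Rpl39 best known from the testis, showed by far the largest change of all members. It had 89.6, 53.3, 59.0 and 87.7 normalized counts in co-culture libraries, against 13.7, 14.2, 18.5 and 10.8 in dimerizer libraries. The lowest co-culture value was well above the highest dimerizer value. These values came from 78, 71, 58 and 130 reads in co-culture libraries and from 10, 11, 20 and 11 reads in dimerizer libraries. The log2 fold change was 2.25 ± 0.24 (SE, 95% interval 1.73 to 2.76, adjusted p = 1.65e-05, limma). It was called under all 18 alternatives, with values from 1.98 to 2.38.

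Rpl39, which lies in the exit tunnel of the ribosome, was much more abundant and stayed at its level, with 2146.0 ± 98.3 normalized counts in co-culture libraries and 2137.0 ± 75.2 in dimerizer libraries (log2 fold change 0.01, 95% interval -0.14 to 0.15). Rpl39l was the minor gene of the pair in every library. Its count was 4.46%, 2.47%, 2.69% and 3.93% of that of Rpl39 in co-culture libraries, against 0.613%, 0.686%, 0.881% and 0.506% in dimerizer libraries. The ratio was 4.73-fold higher in the co-culture, with no overlap (exact two-sided permutation p = 0.0286, the smallest that 4 against 4 libraries can give, adjusted p = 0.0762 over 8 pairs). In the last 300 bases of its transcript, Rpl39l shares no 50-base word with another annotated gene.

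Rpl22l1, the paralog of Rpl22, whose own product represses Rpl22l1 in mice, rose by less. It had 240.0, 410.0, 267.5 and 314.9 normalized counts in co-culture libraries, against 222.6, 245.1, 210.2 and 236.8 in dimerizer libraries. Co-culture library 2 was the highest by far, and co-culture library 1 lay within the range of the dimerizer libraries. The log2 fold change was 0.40 ± 0.14 (SE, 95% interval 0.10 to 0.71, adjusted p = 0.0482, limma). The call was lost without co-culture library 2, where the log2 fold change was 0.25 (adjusted p = 0.12), without co-culture library 4 (adjusted p = 0.108) and without dimerizer library 1, 2, 3 or 4 (adjusted p between 0.0539 and 0.11). It was also lost with upper-quartile scaling (adjusted p = 0.0604) and quantile normalization (adjusted p = 0.0774). In all, the call of Rpl22l1 was lost under 8 of 18 alternatives and held under 10.

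Rpl22 had 2615.3 ± 151.3 normalized counts in co-culture libraries and 2851.6 ± 71.7 in dimerizer libraries, a log2 fold change of -0.13 that was not called (adjusted p = 0.182, limma). The ratio of Rpl22l1 to Rpl22 was 9.39%, 16.8%, 9.97% and 11.3% in co-culture libraries, against 8.06%, 8.45%, 7.2% and 8.38% in dimerizer libraries. Each co-culture ratio was above each dimerizer ratio, a 1.44-fold difference (exact two-sided permutation p = 0.0286, adjusted p = 0.0762 over 8 pairs). Of the end of Rpl22l1, 80.1% is shared with 4 other annotated genes, which averaged no more than 2.65 normalized counts each in co-culture libraries and 3.82 in dimerizer libraries.

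**Figure D3:**
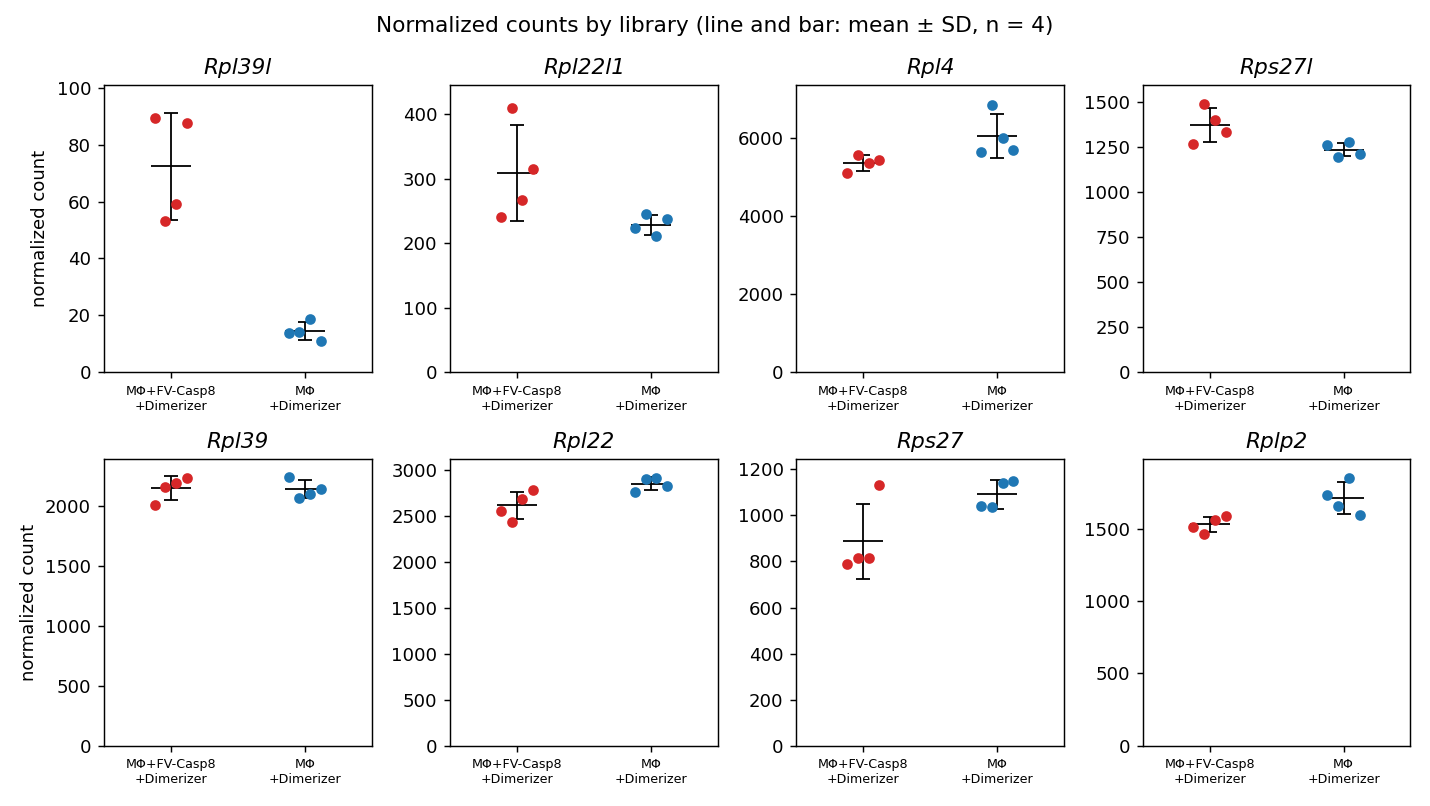
Normalized counts (y axes, starting at 0) of 8 members in the 4 MΦ+FV-Casp8+Dimerizer libraries (red) and the 4 MΦ+Dimerizer libraries (blue), with the mean and SD. Rpl39l, Rpl4 and Rplp2 separate the groups, Rpl39 does not, and in Rps27 co-culture library 4 at 1132.1 lies among the dimerizer libraries.

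Rps27 and Rps27l, a p53 target, encode closely related zinc finger proteins of the small subunit, and of these genes Rps27 fell and Rps27l was not called. Rps27 had 789.0, 813.3, 816.9 and 1132.1 normalized counts in co-culture libraries, against 1040.2, 1035.7, 1142.6 and 1148.8 in dimerizer libraries. The first 3 co-culture libraries lay below all dimerizer libraries, and library 4 lay among them. The log2 fold change was -0.31 ± 0.11 (SE, 95% interval -0.54 to -0.08, adjusted p = 0.0423, limma), and without co-culture library 4 it was -0.435 (adjusted p = 0.00162). The call was lost without co-culture library 1, 2 or 3 (adjusted p between 0.102 and 0.107), without dimerizer library 1, 3 or 4 (0.0659 to 0.0988), with edgeR (0.0527) and with upper-quartile scaling (0.0905). In all, the call of Rps27 was lost under 8 of 18 alternatives and held under 10. The whole end of Rps27 is shared with 9 other annotated genes, so that reads from it and from these copies could be confused.

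Rps27l had 1266.8, 1491.4, 1400.8 and 1335.1 normalized counts in co-culture libraries, against 1260.1, 1197.0, 1276.8 and 1212.7 in dimerizer libraries. Only co-culture library 1 lay within the dimerizer range, and the log2 fold change of 0.15 was not called (adjusted p = 0.132, limma). Rps27l was the more abundant gene of this pair, at 158% ± 28.5 of Rps27 in co-culture libraries and 114% ± 6.55 in dimerizer libraries. The ratio was 1.38-fold higher in the co-culture (exact two-sided permutation p = 0.0571, adjusted p = 0.0914 over 8 pairs), with co-culture library 4 at 118% inside the dimerizer range of 106% to 121%.

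Of the remaining pairs, the ratio of Rplp2 to Rplp0 was 63.4% ± 2.5 in co-culture libraries and 74.3% ± 3.35 in dimerizer libraries (SD, n = 4 each). All co-culture ratios lay below all dimerizer ratios, with a log2 difference of -0.23 (exact two-sided permutation p = 0.0286, adjusted p = 0.0762 over 8 pairs). Rplp1 stood at 286% ± 15.5 of Rplp0 in co-culture libraries and at 274% ± 26.6 in dimerizer libraries (p = 0.4 by the same exact test). No pair passed an adjusted p of 0.05, and the smallest p that the design allows limits what these tests can call.

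Rpl7l1, the product of which is thought to act in ribosome assembly, stood at 30.4% ± 2.16 of Rpl7 in co-culture libraries and at 26.6% ± 2.02 in dimerizer libraries (exact permutation p = 0.0571, adjusted p = 0.0914). Rpl36al stood at 27.2% ± 2.78 of Rpl36a in co-culture libraries and at 24.7% ± 4.99 in dimerizer libraries (exact permutation p = 0.371). Rps4l, which M21 lists as a transcribed pseudogene and which is therefore no member, stood at 14.5% to 29.5% of Rps4x in co-culture libraries and at 15.6% to 24.4% in dimerizer libraries (exact permutation p = 0.771). Rpl3l, known from striated muscle, and Rpl10l, known from the testis, had means of 2.6 and 1.0 normalized counts in co-culture libraries and of 2.0 and 1.0 in dimerizer libraries, too few for a test. Their parents Rpl3 and Rpl10 averaged 1126.1 ± 76.9 and 254.9 ± 28.6 in co-culture libraries, against 1208.7 ± 71.4 and 274.0 ± 15.6 in dimerizer libraries.

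**Figure D4:**
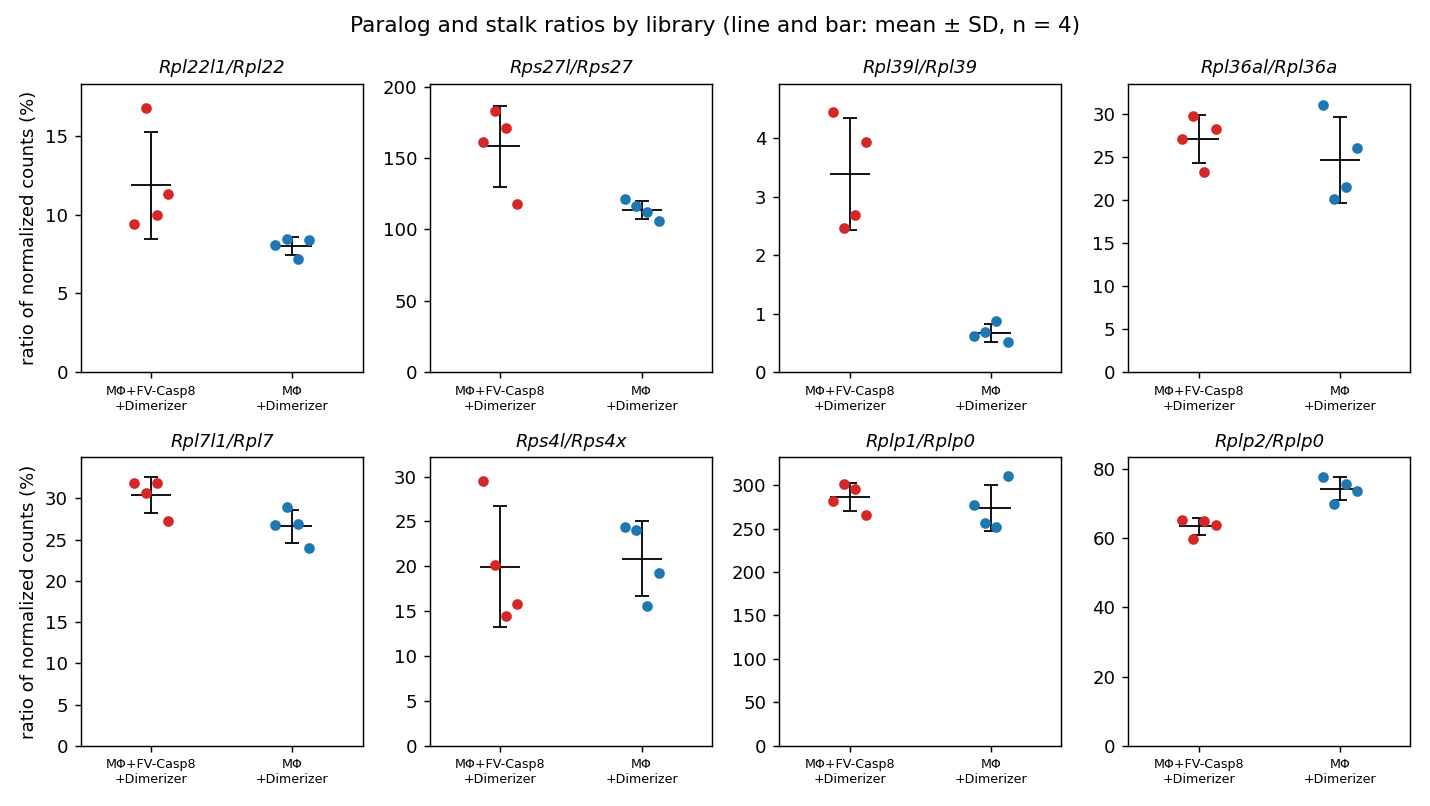
Ratio of normalized counts in percent (y axes, starting at 0) for the 8 pairs tested, in the 4 MΦ+FV-Casp8+Dimerizer libraries (red) and the 4 MΦ+Dimerizer libraries (blue), with the mean and SD. The groups do not overlap for Rpl39l/Rpl39, Rpl22l1/Rpl22 and Rplp2/Rplp0.

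Ribosomal protein genes have many processed copies in the mouse genome, and reads from a shared end can be assigned to more than 1 gene or dropped. Of the 91 members, 24 share no 50-base word of their last 300 transcript bases with another gene, and 51 share over 50%. Among the 77 subunit and stalk genes, the median level was 2326.6 normalized counts in the 20 with no shared word. It was 3358.1 in the 13 with a share up to 50%, 1251.6 in the 36 between 50% and 90%, and 912.2 in the 8 above 90%. Spearman's rho between shared percent and mean level was -0.28 across these 77 genes, which are not independent replicates.

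Rpl24, Rps6 and Rpl10a had the lowest levels of all subunit genes, and most of each of their ends is shared with other genes. Rpl24, of the large subunit, had 1.1, 4.5, 2.0 and 4.7 normalized counts in co-culture libraries, against 8.2, 3.9, 2.8 and 4.9 in dimerizer libraries, and 81.3% of its end is shared. Rps6, the substrate of the S6 kinases, had 43.6, 43.6, 24.4 and 61.4 in co-culture libraries, against 24.7, 27.1, 33.3 and 33.4 in dimerizer libraries, with 83.3% of its end shared. Its log2 fold change of 0.47 had the widest interval of the 84 tested members (-0.08 to 1.02, adjusted p = 0.194, limma), and it was called only without co-culture library 3 (log2 fold change 0.71, adjusted p = 0.0318). Rpl10a, of the large subunit, averaged 81.8 ± 6.1 in co-culture libraries and 90.8 ± 17.8 in dimerizer libraries, with 87.3% of its end shared. How reads that fit several genes were counted was not stated.

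A copy can also stand above its parent. Rpl10-ps3, at chr9:50344201-50344968 on the minus strand, averaged 500.3 ± 78.5 normalized counts in co-culture libraries and 520.2 ± 38.7 in dimerizer libraries. It stood above its parent Rpl10, whose entire end is shared with 13 genes. Of the end of Rpl10-ps3 itself, 88.8% is shared with other genes. Rpl9-ps6 averaged 47.9 ± 8.7 in co-culture libraries and 62.9 ± 7.2 in dimerizer libraries (log2 fold change -0.40, adjusted p = 0.112, limma). Rps27rt averaged 59.8 ± 7.5 in co-culture libraries and 71.0 ± 5.3 in dimerizer libraries (adjusted p = 0.23). Rpl9-ps6 and Rps27rt stood far below their parents Rpl9 and Rps27. In co-culture libraries Rpl9 averaged 817.2 ± 45.2 and Rps27 averaged 887.8 ± 163.3. In dimerizer libraries Rpl9 averaged 852.1 ± 52.6 and Rps27 averaged 1091.8 ± 62.3. The retrocopies Rpl36-ps4, Rpl36a-ps1, Rpl9-ps1 and Rps12-ps3 were below 10 on average, 1 of them at 0 throughout.

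Outside the members, 274 genes that M21 does not list as coding carry Rpl or Rps symbols, most of them pseudogenes. Only 39 were tested and none was called by limma, with 1 at an unadjusted p under 0.05. Their summed normalized counts were 2181 ± 221 in co-culture libraries and 2318 ± 362 in dimerizer libraries. The strongest was Rpl31-ps8, with 223.7 ± 21.1 in co-culture libraries and 232.8 ± 24.2 in dimerizer libraries.

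**Figure D5:**
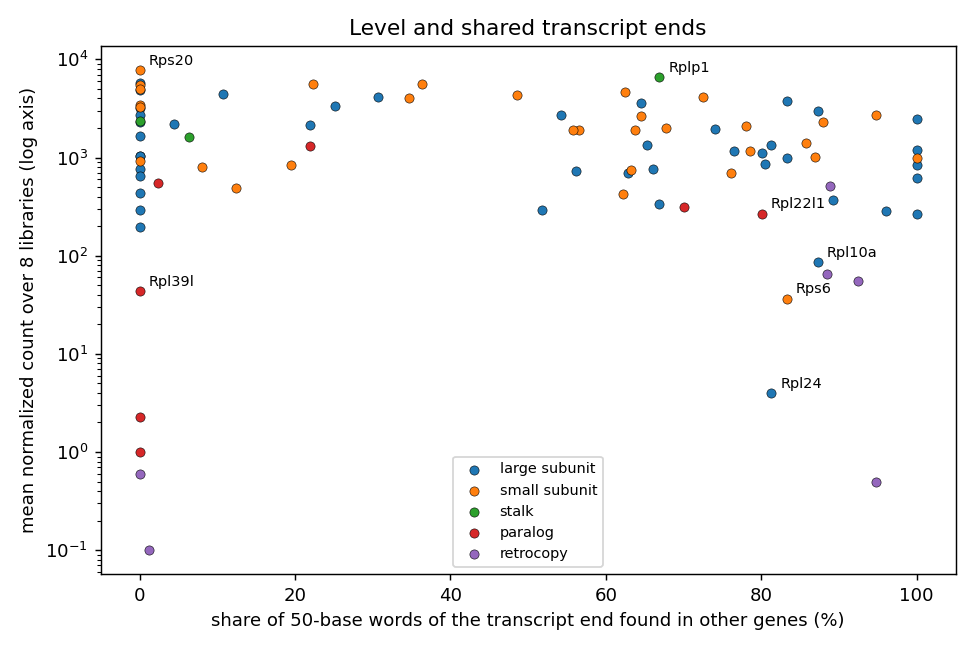
Percent of 50-base words in the last 300 transcript bases that other genes also hold (x axis) against the mean normalized count over the 8 libraries (y axis, log scale), for the members with a mean above 0, coloured by role. Rps6, Rpl10a and Rpl24 lie low on the right, while Rpl39l lies at 0% shared.

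Genes that work beside the ribosomal proteins were counted in lists by function. Fau, which encodes a ribosomal protein fused to a ubiquitin-like protein, had 1108.8 ± 113.7 normalized counts in co-culture libraries and 1222.6 ± 32.3 in dimerizer libraries and was not called (adjusted p = 0.193, limma). Of 7 elongation factors none was called (median 0.04), and of 8 snoRNA host genes none was called (median 0.02). Among 18 other mRNAs listed as having a TOP start, 2 rose, 2 fell and 14 were not called (median -0.03). The start sequences of these 18 were not checked here. Over all tested genes, 15.0% were higher and 13.7% lower.

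Those that rose were Lgals1 and Nap1l1. Lgals1, the lectin galectin-1, had 4648.9 ± 864.0 normalized counts in co-culture libraries and 2609.9 ± 284.1 in dimerizer libraries (log2 fold change 0.82, adjusted p = 0.000208, limma). Nap1l1, a histone chaperone, had 1804.6 ± 163.7 in co-culture libraries and 1527.7 ± 92.7 in dimerizer libraries (log2 fold change 0.24, adjusted p = 0.0396), and its call was lost under 8 of 18 alternatives. Those that fell were Eif3f and Eif3k, subunits of initiation factor eIF3, with 1062.9 ± 103.3 and 1016.0 ± 69.6 in co-culture libraries, against 1398.2 ± 60.3 and 1298.1 ± 64.1 in dimerizer libraries. On the log2 scale Eif3f fell by 0.40 (adjusted p = 0.00184) and Eif3k fell by 0.35 (adjusted p = 0.00269).

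Among 28 other initiation factors 6 rose and none fell (median 0.09), where 15.0% of all tested genes were higher and 13.7% lower. Eif4e, which binds the mRNA cap, had 771.4 ± 92.0 normalized counts in co-culture libraries and 497.8 ± 49.9 in dimerizer libraries (log2 fold change 0.63, adjusted p = 0.000363, limma). Eif4g2 had 4216.1 ± 383.6 in co-culture libraries and 3362.3 ± 129.4 in dimerizer libraries (log2 fold change 0.32, adjusted p = 0.00631).

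Among 19 genes upstream of ribosomal protein synthesis 3 rose and 3 fell, shares near the 15.0% higher and 13.7% lower of all tested genes. Tsc1 and Tsc2, which together restrain mTORC1, had 263.7 ± 31.3 and 122.3 ± 8.1 normalized counts in co-culture libraries, against 373.2 ± 35.3 and 189.6 ± 19.5 in dimerizer libraries. Tsc1 fell by 0.50 and Tsc2 fell by 0.63 on the log2 scale (adjusted p = 0.00289 for Tsc1, 0.000857 for Tsc2, limma). Myc, a transcription factor that drives ribosome production, had 61.4 ± 10.6 in co-culture libraries and 39.1 ± 9.1 in dimerizer libraries (log2 fold change 0.65, adjusted p = 0.028, lost under 5 of 18 alternatives). Larp4 rose by 0.28 on the log2 scale (adjusted p = 0.0435), which was lost under 12 of 18. The remaining called genes of this list were Rptor, which fell by 0.40 (adjusted p = 0.0412), and Eif4ebp1, which rose by 0.30 (adjusted p = 0.0477). What these changes meant for mTORC1 was not tested.

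Among 25 ribosome assembly factors 6 rose and none fell, with a median of 0.14, where 15.0% of all tested genes were higher and 13.7% lower. Bysl, needed for the small subunit, had 147.6 ± 13.6 normalized counts in co-culture libraries and 96.8 ± 5.0 in dimerizer libraries (log2 fold change 0.60, adjusted p = 0.00135, limma). Gnl3, nucleostemin, had 761.5 ± 76.3 in co-culture libraries and 587.8 ± 78.1 in dimerizer libraries (log2 fold change 0.38, adjusted p = 0.0144).

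The ribosomal proteins of mitochondria, which form a separate ribosome, were counted the same way. Of 74 tested, 11 rose, none fell and 63 were not called (median 0.12), where 15.0% of all tested genes were higher and 13.7% lower. Mrpl33 had 1191.3 ± 54.1 normalized counts in co-culture libraries and 731.3 ± 45.2 in dimerizer libraries (log2 fold change 0.70, adjusted p = 1.21e-05, limma). Mrpl3 had 566.1 ± 43.6 in co-culture libraries and 406.3 ± 10.9 in dimerizer libraries (log2 fold change 0.475, adjusted p = 0.000498). The difference between the mitochondrial and the cytosolic family was not tested.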

How the data were processed

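RNA of 8 macrophage cultures was sequenced with the QuantSeq 3′ method, 4 per group as the sample labels give them. The deposited values are normalized counts, a signal per gene that equals reads over the size factor of the library, and multiplying by that factor gave back whole reads, within 0.001 of a read, for 100.0% of the values. Per the methods, reads were mapped to GRCm38 and counted with a Lexogen pipeline. STAR, HTSeq and DESeq2 appear in the submitters' processing notes. The annotation release and the treatment of reads with several matches are not given in the sources used here. Of the gene IDs, 99.12% matched GENCODE M21, which gave symbols, classes and coordinates.

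Fold changes were fitted on log2(normalized count + 1) by limma 3.58.1 (R 4.3.3) with a variance trend, over all 12029 genes with a mean of at least 10, and p values were adjusted by Benjamini-Hochberg at 0.05. A fold change on this scale understates that of low genes. Paralog ratios were compared by permuting all 70 assignments of the libraries (exact, two-sided). Shared ends were 50-base words, on either strand, in the last 300 bases of the main M21 transcript. No duplicated library was found. The p values measure the spread between these cultures.

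Named were called members, the 5 most abundant, the stalk genes, all genes of the listed pairs and Rpsa, and from each other list the 2 of smallest adjusted p in each direction. Others were chosen after their values were seen. A few genes, 1 called member among them, are counted but not reported here. The members and lists were chosen with earlier results of these data known. Alternatives were a pseudocount of 0.5 or of 5, leaving the filter off, a mean above 30, upper-quartile scaling, quantile normalization, centring on the members, edgeR 4.0.16 and DESeq2 1.42.0 on recovered reads, the replicate number as a block, an adjusted p under 0.01 and leaving out each library. Python 3.11.15 with pandas 2.3.3, numpy 2.4.6, scipy 1.17.1 and matplotlib 3.10.9 made tables and figures.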

Additional observations from a re-analysis of the deposited data

Results flagged for a closer look

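Within the groups of 4, single libraries that stood far from the other 3 were sought by Dixon's criterion in 46 groups of values, and 4 were found, where chance alone gives about 1 in 20. Rps27 had 1132.1 normalized counts in co-culture library 4, against 789.0 to 816.9 in the other co-culture libraries. Rps20 had 7545.7 in co-culture library 1, against 7801.7 to 7845.4 in the others of that group. Rplp1 had 6720.9 in dimerizer library 4, against 6064.7 to 6174.0 in the other dimerizer libraries. The summed normalized counts of all members were 159428.3 in dimerizer library 1, against 167827.3 to 168467.7 in the others of that group.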

How the results depend on the processing

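The 3 higher and 1 lower members became 1 and 0 with upper-quartile scaling and at an adjusted p under 0.01, 2 and 3 with quantile normalization, 3 and 0 with edgeR, 2 and 1 both without a filter and centred on the members, and 3 and 1 with DESeq2, both other pseudocounts and a mean above 30. Leaving out each library in turn gave 1 to 3 higher and 0 to 1 lower. Rpl39l was called in every one of these. With the replicate number as a block, 4 members were higher and 4 lower, adding Rpl35, Rpl4, Rps10 and Rpsa, while 2293 genes were higher and 2118 lower in all, against 1806 and 1646 without it. Same-numbered libraries correlated at 0.088, 0.341, 0.293 and 0.194 in their deviations from the group means, and each library correlated best with its own number, but no source says that a number marks a shared animal, so the libraries were not taken as pairs. The causes of these differences were not tested. No paralog ratio passed an adjusted p of 0.05 under any of 11 alternatives, where the smallest possible p was 0.0571 for 3 against 4 libraries and 0.125 for the sign-flip over numbered pairs. The log2 difference of Rpl39l/Rpl39 lay between 1.98 and 2.38. What reads with several matches add to or take from the members with shared ends was not tested.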
